A study of Mus musculus with 12 samples.

Results

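Adventitial fibroblasts, which build and maintain the outermost sheath of the aorta, were taken from the ascending aorta of mice and cultured with or without transforming growth factor β (TGFβ, written TGFb in the sample labels). This account compares 3 libraries of ascending fibroblasts given mouse TGFβ at 10 ng/mL for 48 h with 3 libraries of ascending fibroblasts given the solute alone (0 ng/mL), which are 6 of the 12 bulk RNA-seq libraries of the series. The other 6 hold the same 2 treatments in descending aortic fibroblasts and enter only where the 2 sites are compared. All mice were WT C57Bl/6, and the labels give an age of 14 weeks, 1 passage and 1 batch for every library, while the study's text also states 12 weeks in its methods and 3 passages in its results. Adventitia was cut from the aortic root and ascending aorta together, cells left the tissue pieces in medium with 5% serum, and treatment began near confluence, so the cells compared are the serum-fed, plate-adherent part of the adventitia. Whether the 3 cultures of a group came from separate animals is not stated, and p-values therefore measure the spread between these cultures, which may be technical.

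TGFβ is secreted bound to latent proteins in the matrix, and once released it joins a pair of serine and threonine kinase receptors that phosphorylate SMAD2 and SMAD3. These move with SMAD4 to the nucleus and act with partner factors on matrix, cytoskeletal and feedback genes. In fibroblasts the pathway is known for myofibroblast activation, in which cells assemble contractile fibres and lay down collagen, and inherited defects in the pathway are known causes of thoracic aortic aneurysm.

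The authors deposited the number of reads on each of 54352 gene symbols, without normalization, and the 6 ascending libraries held between 18793120 and 21591129 counts. Levels are given as normalized CPM, in which a gene's counts are divided by its library's size as scaled by edgeR's TMM method over these 6 libraries. Values that rest on 3 counts or fewer (0.134 to 0.160 normalized CPM, by library) are called the floor, a limit that covers counting error only. Mitochondrial genes took 0.703 to 0.944% of the counts, and the first principal component, with 88.3% of the variance of the 500 most variable genes, parted the treatments. Biological variation between replicates, as edgeR's common coefficient, was 6.31% in control and 3.47% in TGFβ libraries.

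The fibroblast label was checked against 10 fibroblast markers, all of which were above the floor in all 6 libraries, and which summed to 22606 to 23471 normalized CPM in controls and 26262 to 26669 with TGFβ. By member, 3 of the 10 rose and 6 fell (median -0.59, and -0.92 over the 9 with at least 10 counts in every library), and most of the sum came from *Col1a1*, *Col1a2*, *Col3a1* and *Vim*. Of the endothelial and heart muscle genes, *Cdh5* had at most 2 counts in any of the 6 libraries, and *Cldn5* and *Myh6* had none. One library stood apart. In control replicate 2, 17 of 18 macrophage markers were higher than in each other ascending library, and the list summed to 531.7 normalized CPM, against 81.5 and 83.2 in the other controls and 43.6 to 63.3 with TGFβ. *Lyz2*, a lysozyme of macrophages, was at 39.8, 299.7 and 43.5 in the 3 controls and 31.6, 28.8 and 21.05 normalized CPM with TGFβ. All 15 macrophage markers tested fell with TGFβ (median log2 fold change -2.09), and without control replicate 2 the number was 11 of 15 and the median -0.62. With DESeq2 10 of 17 fell, and with 12 libraries in one fit 1 of 15. Of the genes tested, 115 were over 2 times higher in this library than in both other controls, of which 68 were called lower and 17 higher with TGFβ, and 41 of the 68 were still called lower without it. The summed level of the smooth muscle markers was 208.2 to 236.6 in controls and 217.7 to 234.4 with TGFβ, while 6 of the 10 tested rose and 4 fell. The mesothelial list summed to 87.7 to 103.7 in controls and 49.7 to 59.3 with TGFβ, the Schwann cell list to 26.02 to 31.2 and 17.9 to 19.1, and the endothelial list to 46.2 to 49.96 and 19.8 to 21.8. The heart muscle list summed to 6.37 to 8.74 and 3.62 to 4.48, nearly all of it from the troponin gene *Tnnt2*, which was at 6.36, 5.96 and 7.94 in controls and 3.47, 3.33 and 3.78 with TGFβ and fell by 0.93 on the log2 scale (edgeR adjusted p = 1.32e-04). The adipocyte list, none of whose 4 genes passed the filter, was also highest in control replicate 2, at 5.08 normalized CPM against 0.935 and 1.20 in the other controls and 0.0483 to 0.588 with TGFβ. The part of these other cell types in the changes below was not tested, apart from the values given without control replicate 2. In these bulk libraries, fewer cells of a type and less RNA per cell cannot be told apart.

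**Figure D1:**
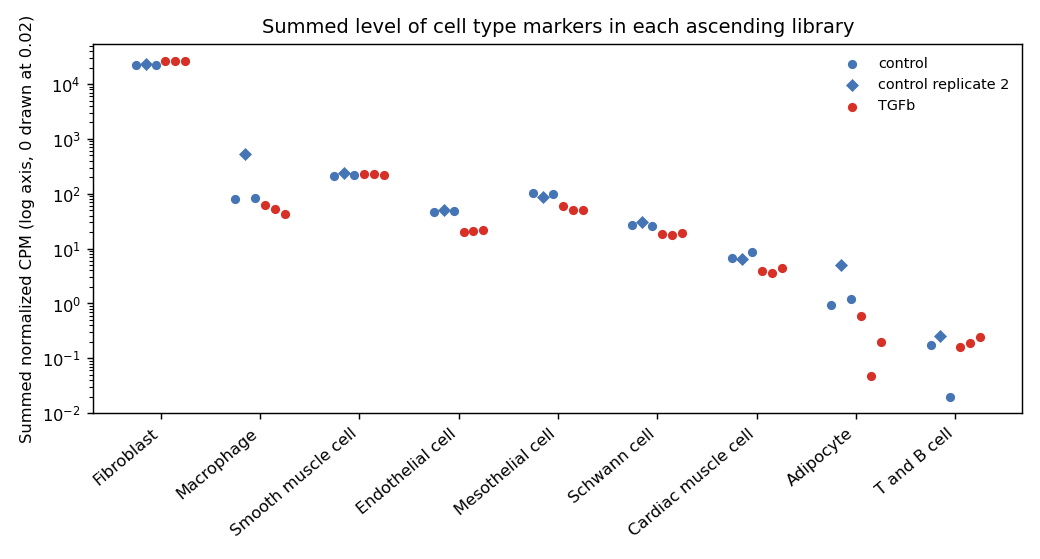
Summed normalized CPM (log axis) of marker lists of 9 cell types in each of the 6 ascending libraries, 1 point per library, with control replicate 2 as a diamond and a sum of 0 drawn at 0.02. The macrophage sum of control replicate 2 (531.7) lies above all other libraries, at 43.6 to 83.2, while the 6 fibroblast sums lie between 22606 and 26669.

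Cultures given TGFβ differed from controls over much of the transcriptome. Of 13917 genes put to the two-sided quasi-likelihood F-test of edgeR, 7767 (55.8%) were differentially expressed (DE) at a Benjamini-Hochberg adjusted p under 0.05, 3929 (28.2%) higher and 3838 (27.6%) lower with TGFβ. Most of these changes were small, with a median absolute log2 fold change of 0.45 among DE genes, against a median standard error of 0.08 over all genes tested. Changes of more than one log2 unit were less balanced, since 550 DE genes (3.95%) exceeded 1 and 1048 (7.53%) were below -1, and beyond 2 units the counts were 149 (1.07%) and 306 (2.2%). The median over all genes tested was -0.004, and 8530 genes (61.3%) had 3 TGFβ values that did not overlap the 3 control values. DESeq2's Wald test, the tool of the study's methods, called 6733 genes, and 6533 of them were called in the same direction by edgeR.

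**Figure D2:**
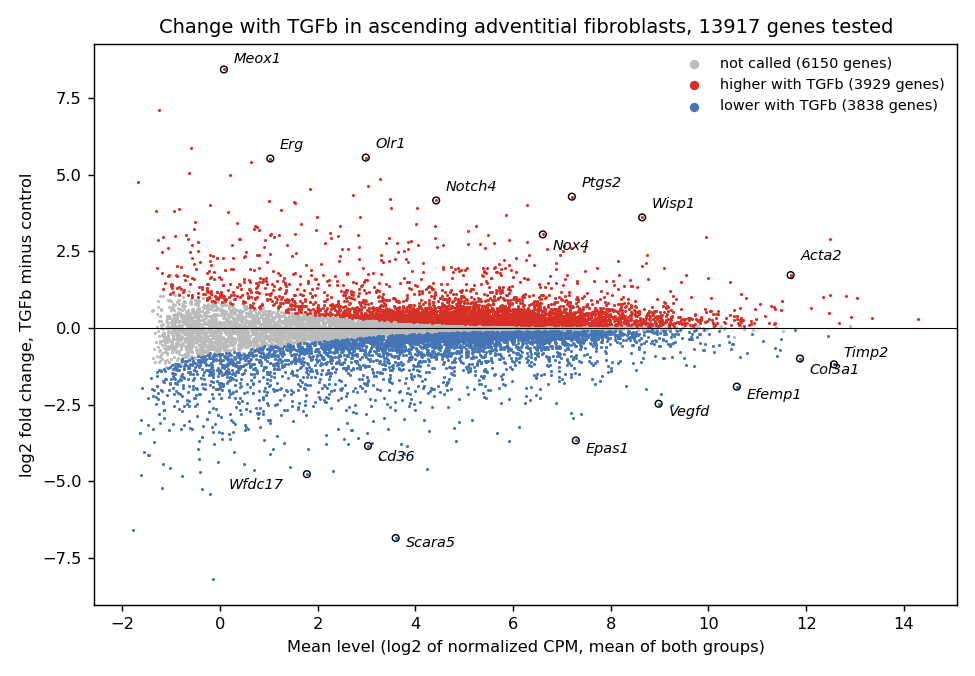
Change with TGFβ (log2 fold change, y axis) against the mean level of each gene (log2 of normalized CPM, x axis) for the 13917 genes tested, with genes named in the text circled. Red points are the 3929 DE genes that were higher and blue points the 3838 that were lower, those of at least 5 normalized CPM reach from *Scara5* at -6.85 to *Olr1* at 5.56, and the value of *Meox1*, with no count in any control, depends on the fit's prior count.

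The genes that rose with the smallest adjusted p included secreted, matrix-bound and enzyme genes (positions on GRCm38). *Wisp1*, a secreted CCN family protein, rose from 60.8, 62.2 and 58.99 normalized CPM in the 3 controls to 737, 744 and 736 with TGFβ (log2 fold change 3.61, standard error 0.033, edgeR adjusted p = 2.12e-20). *Ltbp2*, a latent TGFβ binding protein family member of elastic microfibrils on chromosome 12 from 84783212 to 84876532, went from 224, 226 and 225 to 1679.8, 1814 and 1795 normalized CPM, or 7.83-fold. In both genes each TGFβ library was at least 5 times the highest control, and the replicates of a group differed little. *Ptgs2*, the inducible cyclooxygenase of prostaglandin synthesis on chromosome 1 from 150100031 to 150108227, was at 14.9, 14.3 and 13.99 in controls and 269.9, 292 and 279 with TGFβ, a 19.5-fold rise (standard error 0.05 on the log2 scale, edgeR adjusted p = 3.74e-19). *Nox4*, an NADPH oxidase that makes hydrogen peroxide, rose 8.29-fold, from 20.7, 19.8 and 22.6 to 175, 173 and 175. The 10 genes with the smallest adjusted p among those that rose also held *Loxl2*, *Tnfrsf11b* (osteoprotegerin), *Acta2*, *Rflnb* and *Postn*, with log2 fold changes from 1.72 for *Acta2* to 2.59 for *Rflnb*.

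By size of change, the 10 genes of at least 5 normalized CPM that rose most went from low to moderate levels. *Olr1*, a scavenger receptor for oxidised lipoprotein, was at 0.178, 0.359 and 0.450 in controls and 15.9, 13.1 and 17.5 with TGFβ (log2 fold change 5.56, standard error 0.23). *Ccl17*, a chemokine that attracts T cells, was at 0.401, 0.513 and 0.999 and 18.7, 16.9 and 20.3 (log2 fold change 4.87, standard error 0.20). *Notch4*, a Notch receptor known from endothelium, was at 2.09, 2.31 and 2.45 and 37.5, 47.4 and 37.2 (log2 fold change 4.16, standard error 0.12, edgeR adjusted p = 3.73e-14). In all 3 genes the lowest TGFβ library was more than 10 times the highest control. The other 7 were *C1qtnf3*, *Cdh6* (a cadherin), *Fxyd6*, *Ptgs2*, skeletal muscle actin *Acta1*, carbonic anhydrase *Car2* and *2010300F17Rik*, with log2 fold changes from 4.07 to 4.63. In absolute terms the 10 largest gains included those of *Col1a1*, *Lox*, *Fn1*, *Thbs1*, *Col5a2*, *Acta2*, *Ctgf*, *Fbln2* and *Actb*, all genes of the matrix, its crosslinking or the actin cytoskeleton. *Fn1* (fibronectin) rose 1.23-fold, from 18034 ± 823 to 22128 ± 748 normalized CPM (SD, n = 3).

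Among genes of at least 5 normalized CPM, the largest fall exceeded the largest rise. *Scara5*, a scavenger receptor that binds ferritin, on chromosome 14 from 65666403 to 65764826, had 442, 543 and 489 counts in controls and 5, 4 and 3 with TGFβ, a 118-fold fall to near the floor (edgeR adjusted p = 1.34e-13). *Epas1*, the hypoxia-inducible factor HIF-2α, on chromosome 17 from 86753700 to 86833410, went from 286, 307 and 274 to 21.9, 23.3 and 22.99 normalized CPM (log2 fold change -3.67, standard error 0.051, edgeR adjusted p = 5.07e-18). *Efemp1* (fibulin 3) on chromosome 11 from 28853204 to 28926743 was at 2411, 2442 and 2402 and 661, 636 and 629.8, a 3.77-fold fall (edgeR adjusted p = 5.07e-18). Control and TGFβ libraries were far apart in all 3, and the lowest control stood at over 3 times the highest TGFβ library. *Vegfd*, a growth factor for lymphatic vessels, fell 5.54-fold from 824, 878 and 864 to 162, 148 and 154. *Ly6a*, the stem cell antigen Sca-1 of which 19.0% of 50-base exon sequences also occur in other genes, mostly *Ly6c1*, fell 7.65-fold from 269.5, 269.8 and 259 to 34.6, 36.5 and 33.3. *Thbd* (thrombomodulin), *Tm4sf1*, *Prelp*, *Cd34*, *Plpp3* and *Mettl7a1* completed the 10 genes with the smallest adjusted p, at log2 fold changes from -3.23 to -1.90.

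Among the 10 largest falls, *Bmp3* (-4.67), the chloride channel gene *Clic5* (-4.60), flavin monooxygenase *Fmo2* (-4.28), *Nrk* (-4.12), adenosine receptor *Adora2a* (-3.94) and *Selenbp1* (-3.86, with 46.3% of its 50-base sequences also in other genes, mostly *Selenbp2*) had controls within 1.5 times of each other. The other 3 besides *Scara5* stood further above the other controls in control replicate 2, the library high in macrophage markers. That library was at 12.9 (*Wfdc17*), 17.1 (*Cd36*) and 1.96 (*Ccl6*) times the highest other control, against 1.28 for *Clic5* and 1.14 for *Scara5*. *Wfdc17*, a secreted protein of macrophages, was at 1.34, 17.3 and 1.30 in controls and 0.107, 0.290 and 0.299 with TGFβ, and its log2 fold change of -4.77 became -2.46 without control replicate 2. *Cd36*, a fatty acid transporter, was at 2.40, 41.02 and 2.40 and 1.66, 0.870 and 0.647, with -3.85 becoming -1.19 (edgeR adjusted p = 0.00336). *Ccl6* was at 4.18, 8.22 and 3.20 and 0.107, 0.242 and 0.299, with -4.53 becoming -4.05. All 3 genes kept their direction and call without that library. *Timp2*, an inhibitor of matrix metalloproteinases, lost most in absolute level, from 8437 ± 186 to 3711 ± 78.1 normalized CPM (SD, n = 3), followed by *Col3a1*, *Efemp1*, *Anxa1*, *Sptbn1*, *Cemip*, *Vim*, *Heg1*, *Adamts5* and *Tm4sf1*.

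**Figure D3:**
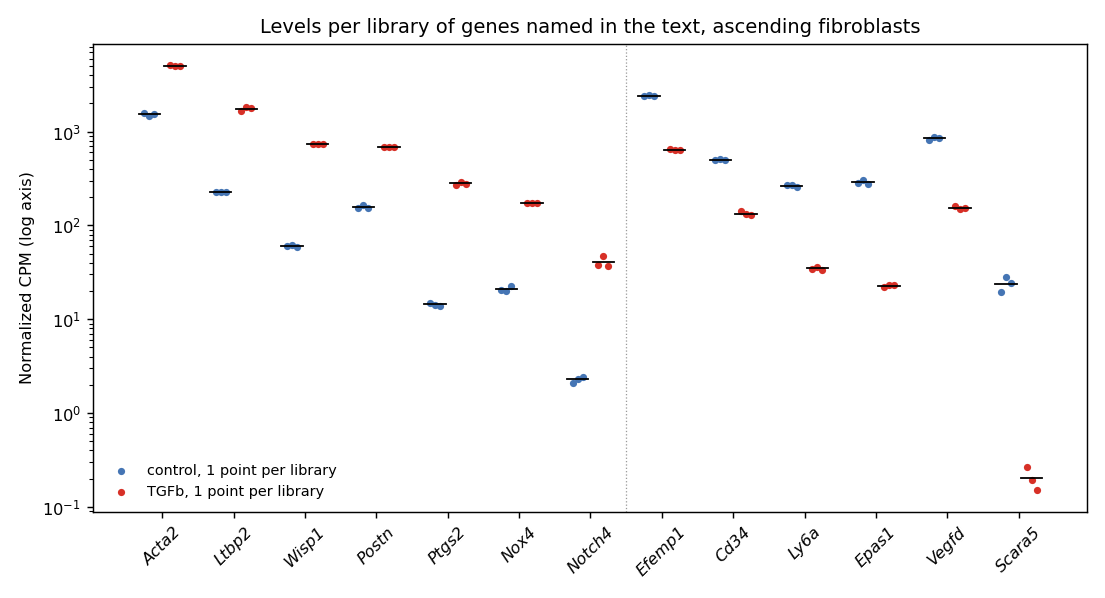
Normalized CPM (log axis) of 13 genes in each of the 3 control and 3 TGFβ ascending libraries, 1 point per library and a black line at the group mean. The 7 genes left of the dotted line rose and the 6 to its right fell, from *Acta2* (3.30-fold up) to *Scara5* (118-fold down). In none of the 13 do the groups overlap, which also held for 61.3% of all genes tested. The genes shown were named for the size or adjusted p of their change in these same libraries.

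Promoters of genes at both ends of the response were read from RefSeq (GRCm38.p6), which gave one for 10301 of the 13917 genes tested, taken at the most upstream start. Gene positions in the text are from GENCODE, whose starts can differ. For *Acta2* most of the window, and for *Ltbp2* part of it, lies inside the gene by those positions. The 250 bases before the start are printed 5′ to 3′ on the gene's strand for 3 genes that rose (*Acta2*, chr19:34255374-34255623, minus strand; *Ltbp2*, chr12:84876492-84876741, minus strand; *Ptgs2*, chr1:150099781-150100030, plus strand) and for 1 that fell (*Efemp1*, chr11:28852955-28853204, plus strand), chosen because each is among the 10 smallest adjusted p of its direction. Capitals mark the SMAD half-site CAGAC, to which SMAD3 and SMAD4 are known to bind, the TEAD motif GGAATG, each on either strand, or a CArG box with 1 base that differs from its pattern. The CArG box, which SRF binds, has the pattern CC, then A or T at 6 places, then GG.
Acta2: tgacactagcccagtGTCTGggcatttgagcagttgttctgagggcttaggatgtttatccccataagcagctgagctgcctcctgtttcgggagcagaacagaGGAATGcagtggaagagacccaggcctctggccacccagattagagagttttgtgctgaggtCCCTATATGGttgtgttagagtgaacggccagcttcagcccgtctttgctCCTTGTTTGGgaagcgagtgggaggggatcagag
Ltbp2: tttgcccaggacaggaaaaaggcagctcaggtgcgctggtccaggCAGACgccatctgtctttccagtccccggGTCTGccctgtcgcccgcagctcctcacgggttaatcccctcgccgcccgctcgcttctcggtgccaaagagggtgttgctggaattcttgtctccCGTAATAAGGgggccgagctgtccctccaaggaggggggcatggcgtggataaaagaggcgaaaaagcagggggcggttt
Ptgs2: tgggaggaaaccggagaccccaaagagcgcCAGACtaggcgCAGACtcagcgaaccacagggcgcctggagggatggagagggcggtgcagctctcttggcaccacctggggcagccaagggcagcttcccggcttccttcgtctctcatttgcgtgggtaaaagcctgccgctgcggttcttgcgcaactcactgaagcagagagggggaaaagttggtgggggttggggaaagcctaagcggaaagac
Efemp1: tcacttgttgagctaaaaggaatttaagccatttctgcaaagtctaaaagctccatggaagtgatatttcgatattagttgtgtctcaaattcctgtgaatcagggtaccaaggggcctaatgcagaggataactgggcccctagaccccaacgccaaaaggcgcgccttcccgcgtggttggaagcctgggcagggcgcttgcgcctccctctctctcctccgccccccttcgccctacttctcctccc
The letters of the SMAD half-site occur 1 time before *Acta2*, which also has 1 TEAD motif, and 2 times each before *Ltbp2* and *Ptgs2*, and neither motif occurs in the 250 bases before *Efemp1*. None of the 4 windows holds the AP-1 motif TGAGTCA or the palindrome of SMAD sites, GTCTAGAC. The strict CArG pattern is in none of them either. With 1 differing base allowed, a search added after the windows were seen, it matches 2 times before *Acta2*, 84 and 34 bases before the start counted from the first base of the match, 1 time before *Ltbp2* and not before *Ptgs2* or *Efemp1*. These short words are common. Over 300 bases from 250 before to 50 after the start, the half-site was present in 47.7% of tested genes, in 58.7% of the 366 that rose by more than 1 log2 unit and in 49.2% of the 720 that fell by more than 1, and in 49.7% of all RefSeq promoters of this length. The AP-1 motif was in 3.51% of tested genes and in 7.92% and 5.14% of those 2 groups (all RefSeq promoters, 5.17%). The TEAD motif was in 12.2%, 17.5% and 14.6% (all, 14.7%). For the HIF motif ACGTG these shares were 25.5%, 27.3% and 16.8% (all, 19.6%), and for the E-box CAGCTG 14.8%, 21.9% and 21.4% (all, 16.1%). The strict CArG pattern was in 1.38%, 2.46% and 1.67% (all, 1.59%), and with up to 1 differing base in 16.6%, 23.2% and 18.2% (all, 21.4%). The SMAD palindrome was in 0.243%, 0.546% and 0.278% (all, 0.211%). Over DE genes of any size of change, 3015 higher and 2907 lower, the half-site was in 48.5% and 46.7%. AP-1 was in 4.01% and 3.54% of these, TEAD in 12.0% and 12.9% and the E-box in 13.1% and 16.9%. The HIF motif was in 31.6% and 21.4%, strict CArG in 1.59% and 1.24% and the palindrome in 0.365% and 0.172%. CArG with up to 1 differing base was in 16.4% and 16.7%. All motifs were searched on both strands, and the matches describe letters, not binding.

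The pathway's own components shifted at the level of ligand, receptor and inhibitor. Of 14 ligand, receptor and latent binding protein genes, 10 rose and 3 fell (median log2 fold change 0.45, against -0.004 over all genes tested, of which 28.2% rose and 27.6% fell). With 12 libraries in one fit, 4 rose and 3 fell. Among the ligands, *Tgfb1* rose from 18.6, 23.6 and 18.6 to 54.2, 53.6 and 52.4 normalized CPM (2.64-fold, edgeR adjusted p = 5.86e-11) and *Tgfb2* from 97.99 ± 2.08 to 138 ± 4.93 (SD, n = 3), while *Tgfb3* was at 109 ± 1.33 and 102 ± 4.50 and was not DE (edgeR adjusted p = 0.0913) unless TGFβ replicate 1 was left out (log2 fold change -0.12). The receptors went in both directions. *Tgfbr2*, the receptor that binds the ligand first, fell 1.93-fold from 197, 214 and 189 to 109, 101 and 101 (edgeR adjusted p = 3.32e-11), the co-receptor *Tgfbr3* (betaglycan) fell 3.81-fold from 51.1, 51.6 and 54.9 to 13.9, 13.4 and 14.1, and the BMP9 receptor *Acvrl1* fell by 1.09 on the log2 scale, whereas *Tgfbr1* rose by 0.36. Of the latent binding proteins, *Ltbp1* rose from 153 ± 4.57 to 335 ± 4.07, beside *Ltbp2* above.

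Of 12 SMAD and feedback genes, 7 rose and 3 fell (median 0.30). *Pmepa1*, a membrane protein that sequesters receptor SMADs, rose from 130.3, 135 and 149.8 to 716, 714 and 739 (5.23-fold, edgeR adjusted p = 6.59e-17), and the SMAD corepressor *Skil* rose from 50.5, 53.2 and 49.5 to 172, 167 and 155. The inhibitory *Smad7* rose by 0.52 and the corepressor *Tgif1* by 1.02 on the log2 scale. *Smad3* itself fell from 115, 106 and 113 to 60.6, 64.4 and 64.3 (log2 fold change -0.82, edgeR adjusted p = 1.54e-10), and *Smad2*, at 46.98 ± 2.51 and 48.4 ± 1.24 (SD, n = 3), and *Smad4* were not DE.

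Genes of the activated fibroblast list mostly rose. Of the 19 tested of 20, 14 rose and 3 fell (median 1.71), and *Lrrc15*, with at most 13 counts in a library, was too low to be tested. The list was chosen with earlier results of these data known. It holds *Ada*, *Akap5*, *Cthrc1* and *Wisp1*, which the study names among the top genes raised by TGFβ over all its libraries. Their rise here is therefore not independent of that result. *Postn* (periostin, a matrix protein of healing tissue) on chromosome 3 from 54361109 to 54391037 went from 154, 167 and 153 to 680.4, 682 and 687 (4.33-fold, edgeR adjusted p = 3.05e-17). *Cthrc1*, a secreted marker of activated fibroblasts, rose 12.8-fold, from 8.46, 9.45 and 7.19 to 107, 101 and 112, and the cytokine *Il11* rose from 1.96, 1.75 and 1.65 to 8.55, 9.90 and 9.20. *Meox1*, a homeobox factor of fibroblast activation located at 101877510 to 101894374 of chromosome 11, had 29, 57 and 41 counts with TGFβ and none in any control, which is at least 14.5-fold higher against the floor of 3 counts in each control library (edgeR adjusted p = 2.65e-07). These levels were low, at 1.55 to 2.75 normalized CPM. *Ada* (adenosine deaminase) rose 16.2-fold from 9.07 ± 0.878 to 147 ± 9.12 and the kinase anchor *Akap5* from 2.75 ± 0.568 to 29.3 ± 2.003 (SD, n = 3). *Fap*, at 0.25 to 0.924 normalized CPM in controls and 0.435 to 0.588 with TGFβ, was not DE.

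Contractile genes were all DE, 12 of 16 higher and 4 lower (median 0.42). *Acta2* (smooth muscle α-actin) on chromosome 19 from 34241090 to 34255590 was at 1579.8, 1464 and 1537 in controls and 5105, 5001 and 5025 with TGFβ (3.30-fold, edgeR adjusted p = 2.58e-17), *Tpm1* (tropomyosin) rose 3.09-fold from 497 ± 13.9 to 1535 ± 34.5, and *Cnn1* (calponin) went from 12.2, 11.04 and 11.4 to 46.3, 43.4 and 42.9. *Tagln* (transgelin) rose from 7.61, 6.47 and 8.04 to 21.4, 19.2 and 22.1, with 58.3% of its 50-base sequences shared with other genes, mostly an overlapping gene on the other strand. Those that fell included 2 markers of mature muscle. *Myh11* (smooth muscle myosin heavy chain) fell from 23.99, 26.2 and 23.8 to 18.1, 17.1 and 12.7 and *Des* (desmin) from 3.43, 3.08 and 2.70 to 1.82, 0.870 and 0.945, and *Myocd*, the smooth muscle coactivator, had 2 to 15 counts per library and was not tested. Of 11 tested SRF and YAP partners, 7 rose and 2 fell (median 0.23), while 1 fell with DESeq2 or without TGFβ replicate 1 or 3, and 3 fell without TGFβ replicate 2. With 12 libraries in one edgeR fit 3 rose and 0 fell (0 also at an unadjusted p under 0.05). Their largest change was that of *Ankrd1*, a YAP target, from 102, 96.8 and 107 to 451, 472 and 476 (4.58-fold), while *Srf* rose by 0.41, *Mkl1* by 0.36 and *Tead1* by 0.35 on the log2 scale.

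Among the 9 fibrillar collagens, 5 rose and 3 fell (median 0.09). With at least 10 counts required in every library, which left 7 of them, 5 rose and 2 fell and the median was 0.48. *Col1a1* on chromosome 11 from 94936224 to 94953042 rose 1.96-fold, from 5554, 5797 and 5599 to 11178, 11132 and 10942 (edgeR adjusted p = 1.20e-15), *Col5a2* rose by 1.02 and *Col11a1* by 1.73 on the log2 scale. *Col3a1*, on chromosome 1 from 45311538 to 45349706, fell from 4852, 5285 and 4864 to 2622, 2429.8 and 2464 (log2 fold change -0.997, edgeR adjusted p = 2.11e-13). Per kilobase of exon, *Col1a1* moved from 861 to 1689 normalized CPM and *Col3a1* from 509 to 255. *Col5a3* fell by 1.26 on the log2 scale, and *Col24a1*, at 1.16, 2.05 and 1.35 in controls, was at or under the floor in all TGFβ libraries.

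Collagen modification and crosslinking enzymes rose in 14 of 20 cases and fell in 4 (median 0.48). All 5 lysyl oxidase genes, whose products crosslink collagen and elastin, rose. *Lox* went from 4657, 4703 and 4742 to 9747, 9652 and 9674 (2.06-fold), *Loxl2* from 217, 222 and 226 to 863, 880.0 and 856, with 45.01% of its 50-base sequences also in other genes, mostly a predicted gene, *Loxl3* from 166, 149.8 and 156 to 634, 654 and 645 and *Loxl4* by 1.34 on the log2 scale, and *Loxl1* was DE and higher too. Of 12 elastic fibre genes, 6 rose and 3 fell (median 0.09, and 0.05 to 0.26 with 1 library left out, the extremes being without control replicates 1 and 2). *Eln* (elastin) on chromosome 5 from 134702593 to 134747323 rose 1.70-fold from 1586, 1638 and 1505 to 2941, 2516 and 2606 (edgeR adjusted p = 2.42e-10), *Mfap4*, a microfibril protein, rose 10.01-fold from 5.56, 7.29 and 7.69 to 71.4, 65.5 and 68.9, and *Mfap2* fell by 0.78 on the log2 scale. *Fbn1* (fibrillin 1) was at 1593, 1975 and 1777 and 1992, 2042 and 1867 (log2 fold change 0.14, edgeR adjusted p = 0.0327), and it was not DE with control replicate 1 or 3 or TGFβ replicate 1 or 2 left out (edgeR adjusted p up to 0.18), nor with DESeq2.

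Of 6 small leucine-rich proteoglycans in the list below, which bind collagen fibrils, 5 fell and biglycan rose. *Aspn* (asporin), of the same family but outside that list, was at 5.07, 10.5 and 6.69 in controls and 6.52, 6.47 and 9.85 with TGFβ and was not DE (edgeR adjusted p = 0.873). Over the 11 proteoglycan and hyaluronan genes, 5 rose and 6 fell (median -1.20). *Dcn* (decorin) fell from 171, 240.3 and 194 to 90.5, 88.4 and 82.8, *Fmod* (fibromodulin) from 46.9, 54.1 and 48.2 to 16.9, 21.1 and 16.6, *Ogn* (osteoglycin) from 351, 396 and 363 to 140.1, 135 and 147 and *Prelp* from 826, 873 and 848 to 191, 179 and 199. *Lum* (lumican) was at 5.83, 40.8 and 7.99 in controls, highest in the library high in macrophage markers, and its log2 fold change of -2.95 became -1.56 without it (edgeR adjusted p = 2.08e-07). *Bgn* (biglycan) rose by 0.16 on the log2 scale. Hyaluronan synthase *Has2* rose from 0.846, 0.513 and 0.400 to 7.22, 7.004 and 7.76 and the large proteoglycan *Acan* (aggrecan) from 0.0890, 0.667 and 0.599 to 1.82, 4.20 and 4.83 normalized CPM.

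Basement membrane and network collagen genes were divided, 8 higher and 9 lower of 19 (median 0.04, and -0.02 to 0.10 with 1 library left out). *Nid2* (nidogen 2) fell from 178, 200.3 and 180.3 to 54.6, 62.8 and 65.7 and *Col18a1* by 1.02 on the log2 scale, and *Lama2* rose by 0.78. Of 16 integrins, 8 rose and 5 fell (median 0.20, and 0.11 without control replicate 2). *Itga11*, which pairs in a collagen receptor, rose 6.36-fold from 30.4, 36.97 and 39.5 to 212, 239 and 229.6, the fibronectin receptor subunit *Itga5* from 170.0 ± 8.52 to 502 ± 9.67 (SD, n = 3), and *Itgav* and *Itgb5*, subunits of receptors that can release latent TGFβ, by 0.73 and 1.22 on the log2 scale. *Itgb8*, another such subunit, fell by 1.07. Among 16 tested proteases and inhibitors, 6 rose and 8 fell (median -0.28, and -0.62 over the 14 with at least 10 counts in every library). Both plasminogen activators fell, *Plat* from 20.2, 20.5 and 19.9 to 4.38, 3.38 and 3.73 and *Plau* from 21.7, 25.2 and 22.4 to 6.25, 4.83 and 4.83. *Mmp3* fell by 1.66 on the log2 scale, *Mmp9* had 0, 1 and 3 counts in controls and 36, 51 and 47 with TGFβ (edgeR adjusted p = 2.96e-07), and *Timp1* and *Timp3* rose by 0.97 and 0.88, with 21.4% of the 50-base sequences of *Timp3* in other genes, mostly the overlapping *Syn3*.

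The set of genes that mark adventitial progenitors and fibroblasts shared across tissues fell almost throughout. Of 15 tested, 14 fell and none rose with edgeR (0 also at an unadjusted p under 0.05, and 0 with DESeq2), with a median of -1.90, and *Gsn* alone was not DE. *Cd34*, a sialomucin of progenitors, fell 3.74-fold from 498, 506 and 501 to 141, 132 and 129 (edgeR adjusted p = 9.66e-17), and *Pdgfra*, a platelet-derived growth factor receptor that marks fibroblasts, from 185, 194 and 188 to 60.7, 53.1 and 55.5 (log2 fold change -1.74, standard error 0.047). *Pi16*, the marker of adventitial reservoir fibroblasts, was lower in the 3 TGFβ libraries, at 6.52, 5.65 and 4.88, than in controls, at 12.1, 13.8 and 9.84. *Clec3b* (tetranectin) fell from 13.2, 16.5 and 14.7 to 1.87, 1.74 and 0.498, *Ackr3*, a scavenging receptor of CXCL12, from 135, 142 and 131 to 28.1, 24.7 and 27.96 and *Col14a1* from 151, 159 and 157 to 30.8, 35.7 and 29.4. *Ly6c1* fell by 2.07 on the log2 scale, with 32.8% of its 50-base sequences in other genes, mostly *Ly6c2*. The count of 14 was the same without control replicate 2. *Pdgfrb*, the other receptor, rose from 428, 447 and 414 to 714, 697 and 697.

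Genes of the secretory pathway rose. All 15 genes were DE and higher (0 lower with edgeR, at an unadjusted p under 0.05 or with DESeq2), with a median of 0.55. The number DE and higher was 14 with DESeq2 or without control replicate 1 or 3 or TGFβ replicate 1 or 2, and 7 with 12 libraries in one fit. *Creb3l2* and *Creb3l1*, membrane-bound factors of secretory capacity, rose most, *Creb3l2* from 133, 138 and 130.5 to 437, 436 and 442 (3.28-fold, edgeR adjusted p = 1.27e-16) and *Creb3l1* from 47.7, 47.6 and 47.7 to 98.9, 109 and 102. *Kdelr3*, a retrieval receptor, rose by 0.93, *Sec23a*, a COPII coat subunit that large cargo such as procollagen needs, by 0.75, and the chaperone *Hspa5* (BiP) by 0.56 on the log2 scale. Amino acid synthesis genes rose as well. Of 18 serine, glycine and proline synthesis genes and ATF4 targets, 15 rose and 3 fell (median 0.86), and 1 fell with DESeq2 or without control replicate 1, TGFβ replicate 1 or TGFβ replicate 2. *Aldh1l2*, a mitochondrial folate enzyme, rose 3.18-fold from 30.04, 29.7 and 32.02 to 95.5, 100.2 and 95.97, *Mthfd2* by 1.09, *Shmt2* by 0.81, and *Aldh18a1* and *Pycr1*, the first and last enzymes of proline synthesis from glutamate, by 1.01 and 0.90. The enzymes that make serine rose less, *Phgdh* by 0.45 and *Psat1* by 0.28, and 47.8% of the 50-base sequences of *Phgdh* also occur in other genes, mostly a predicted gene. The glutamine transporter *Slc1a5* fell from 185, 185 and 186 to 94.2, 90.3 and 87.4 while the neutral amino acid transporter *Slc1a4* rose from 45.4, 43.1 and 42.9 to 89.6, 89.4 and 87.4.

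Other metabolic lists did not share that direction. Glycolysis genes were split, 7 higher and 7 lower of 15 (median 0.04, and 0.02 to 0.06 with 1 library left out) and 1 and 2 with 12 libraries in one fit, with *Hk2* (hexokinase 2) the largest change, from 20.2, 19.5 and 17.5 to 59.5, 70.6 and 60.2, while *Ldha* was not DE. Of 18 cholesterol synthesis genes, 2 rose and 13 fell (median -0.32), and 1 rose and 1 fell with 12 libraries in one fit. The falls were small, *Dhcr7*, of the last step of the pathway, being the largest at -0.76. Of 15 xenobiotic and glutathione enzymes, 13 fell (median -1.40) and 1 rose, *Nqo1*, a quinone reductase, by 0.15 on the log2 scale (edgeR adjusted p = 0.0307). None was called higher with DESeq2, with no filter on low counts, or without control replicate 2 or 3 or TGFβ replicate 1 or 2. *Gstm1* fell from 145, 150.4 and 155 to 34.4, 38.02 and 39.5, *Gstt1* from 17.7, 18.2 and 18.9 to 3.74, 3.38 and 2.69, *Fmo2* from 16.8, 21.1 and 17.5 to 1.28, 0.918 and 0.647 and *Aldh3a1* from 4.27, 3.95 and 3.75 to 0.374, 0.338 and 0.0498 normalized CPM. Of 12 adipogenic and lipid handling genes, 7 fell and 2 rose (median -0.90, and -0.63 without control replicate 2). *Lpl* (lipoprotein lipase) was at 21.5, 57.9 and 25.3 in controls and 6.09, 5.80 and 5.62 with TGFβ, *Apoe* at 45.5, 134 and 39.4 and 25.4, 22.6 and 27.4, both highest in control replicate 2, the library highest in macrophage and adipocyte markers, and the log2 fold change of *Apoe* was -1.53 with and -0.76 without it. *Plin2*, a lipid droplet coat, rose from 53.7, 62.8 and 50.3 to 152, 152 and 158.

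Of 9 hypoxia-inducible factor genes and targets, 5 fell and 2 rose (median -0.53). The subunit genes went apart, as *Hif1a* rose from 73.7, 74.2 and 71.9 to 106, 93.9 and 96.5 and *Epas1* fell 12.7-fold. *Adm* (adrenomedullin, a vasodilator peptide) fell 6.95-fold from 299, 287 and 293 to 40.8, 37.4 and 48.2 (edgeR adjusted p = 7.53e-16), whereas *Vegfa* rose by 0.35 on the log2 scale.

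Signals to other cells also changed. Of 11 tested chemokine and cytokine genes of 21, 6 rose and 4 fell (median 0.22). *Il6* rose 7.72-fold from 4.58, 4.88 and 4.99 to 37.4, 36.4 and 37.8 (edgeR adjusted p = 7.58e-15), *Lif*, of the same cytokine family, from 6.41, 6.16 and 7.89 to 58.4, 64.1 and 59.01, and *Cx3cl1* (fractalkine) from 12.1, 12.7 and 12.2 to 88.8, 83.9 and 82.9. The monocyte attractant *Ccl2* fell by 0.54, *Ccl7* by 1.04 and the pattern receptor *Ptx3* by 1.61 on the log2 scale. Complement genes fell in 6 of 8 tested cases and rose in 1 (median -0.91). *Serping1*, the C1 inhibitor, fell from 206, 231 and 216 to 71.6, 71.7 and 71.3, and *Masp1*, a lectin pathway protease, rose from 23.6, 22.1 and 21.1 to 81.2, 90.04 and 84.4. *C3* was at 9.39, 21.2 and 12.4 in controls and 9.14, 7.44 and 7.11 with TGFβ, again highest in control replicate 2. Of 15 tested interferon-stimulated and MHC class I genes, 11 fell and none rose with edgeR (0 at an unadjusted p under 0.05 and 0 with DESeq2, but 1 with edgeR when control replicate 2 was left out, *H2-K1* at a log2 fold change of 0.34, and 1 when TGFβ replicate 2 was, *Ifi44* at 1.45), with a median of -0.47. *Ifit3* fell from 34.2, 36.8 and 39.3 to 8.66, 7.97 and 9.30, with 51.2% of its 50-base sequences in other genes, mostly *Ifit3b*, and *Gbp2*, a guanylate-binding protein, from 10.7, 12.3 and 13.4 to 4.12, 3.96 and 4.03.

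Growth factor genes went in both directions. Of 23, 12 rose and 9 fell (median 0.22). *Igf1* rose 7.31-fold, from 11.2, 20.8 and 11.6 to 109, 101 and 109 (edgeR adjusted p = 1.25e-11), *Hbegf*, an EGF receptor ligand, from 29.8, 26.5 and 25.3 to 123, 129.6 and 125, and *Pdgfc* from 18.9, 20.2 and 16.2 to 65.5, 64.7 and 68.9. *Fgf10* fell 8.16-fold, from 13.8, 16.7 and 16.1 to 1.66, 2.27 and 1.79, and *Igfbp4* from 33.6, 53.9 and 30.6 to 8.39, 8.94 and 8.91. *Igfbp5*, an IGF binding protein, was at 2.80, 48.1 and 2.15 in controls and 12.9, 13.4 and 20.8 with TGFβ, so that control replicate 2 alone lay above the TGFβ libraries. It was not DE over the 6 libraries (log2 fold change -0.14, standard error 0.67, edgeR adjusted p = 0.877) and was higher with TGFβ without that library (log2 fold change 2.65, edgeR adjusted p = 3.03e-12).

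The 4 Id genes of the BMP list, known BMP targets, fell. Of 18 tested BMP and activin pathway genes, 7 rose and 9 fell (median -0.30, -0.18 without control replicate 3, and -0.011 over the 15 genes with at least 10 counts in every library, of which 7 rose and 7 fell). *Id1*, *Id2*, *Id3* and *Id4* fell by 1.09, 1.39, 0.36 and 1.30 on the log2 scale, and the ligand *Bmp4* from 189, 194 and 190.0 to 88.5, 89.3 and 86.1. *Inhbb*, an activin subunit, fell 8.08-fold, from 32.4 ± 1.16 to 4.01 ± 0.737 (SD, n = 3). Of the secreted antagonists, *Grem1* fell by 0.38 on the log2 scale, and *Fstl3* rose by 2.13, with 46.2% of its 50-base sequences in other genes, mostly the overlapping *Prss57*. In the Wnt list 6 rose and 8 fell of 18 tested (median -0.03, -0.12 to -0.02 with 1 library left out, and -0.14 over the 17 with at least 10 counts in every library). *Wnt5a* rose from 50.9, 50.2 and 46.5 to 194, 178 and 187 and *Wnt10b* and *Wnt9a* by 1.61 and 1.43 on the log2 scale, and the secreted antagonists *Sfrp2* and *Sfrp1* fell, *Sfrp2* 13.6-fold from 15.1, 12.99 and 20.03 to 0.802, 1.35 and 1.39 and *Sfrp1* by 1.24 on the log2 scale. In the Notch list of 8 tested genes 2 rose and 3 fell (median -0.11, -0.20 to -0.06 with 1 library left out, -0.23 over the 7 with at least 10 counts in every library, and over 10 genes 0.04 with no filter on low counts and 0.03 with DESeq2). The share DE in the Notch list was 62.5%, near the 55.8% of all genes tested. *Notch3* fell from 82.4, 95.3 and 82.3 to 23.997, 25.4 and 24.3 and *Notch1* from 18.7, 22.6 and 16.9 to 10.2, 8.79 and 10.4, opposite in direction to *Notch4* above, and the target *Heyl* rose from 2.49, 3.85 and 1.80 to 11.8, 8.26 and 8.26.

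Of 12 endothelial marker genes, 5 had enough counts to be tested, and they did not move together. *Erg*, an ETS factor of endothelium, had 1, 4 and 0 counts in controls and 68, 62 and 108 with TGFβ (edgeR adjusted p = 5.47e-08). The angiopoietin receptor *Tek* fell from 24.1, 26.4 and 24.3 to 3.69, 4.83 and 4.13 and *Flt1*, a VEGF receptor, from 20.6, 20.4 and 22.5 to 10.3, 11.3 and 10.2. *Pecam1* had 1 to 6 counts per library and was not tested.

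Transcription factors of the immediate early and Krüppel-like families fell in 10 of 18 cases and rose in 6 (median -0.22). *Klf4* fell 2.95-fold from 334, 329 and 347 to 112, 117 and 114 (edgeR adjusted p = 9.17e-16), *Junb* rose from 35.6, 33.4 and 29.3 to 76.5, 80.2 and 74.7 and *Egr2* from 0.935, 1.69 and 0.899 to 11.01, 9.18 and 8.16, while *Fos*, at 2.51 ± 0.229 and 2.16 ± 0.361 (SD, n = 3), was not DE. Of 20 tested mesenchymal and cardiac factors, 12 fell and 4 rose (median -0.34), and 1 fell and 1 rose with 12 libraries in one fit. The cardiac factor *Tbx20* fell from 85.4, 87.5 and 90.2 to 48.96, 46.2 and 39.3, *Gata4* by 0.52 and *Hand2* by 0.27 on the log2 scale, and the mesenchymal *Prrx1* from 184, 197 and 199 to 83.7, 83.3 and 83.4. *Meox2* fell from 1.34, 1.13 and 1.10 to 0.107, 0.242 and 0 normalized CPM, the reverse of *Meox1*, and *Foxc2* rose from 37.6, 35.8 and 32.02 to 92.03, 89.9 and 93.5.

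Of 22 cell cycle genes, 4 rose, 7 fell and 11 were not DE (median -0.10, and -0.12 to -0.05 with 1 library left out). The share DE was 50%, near the 55.8% of all genes tested. The number that rose was 2 without control replicate 2, without TGFβ replicate 3 or with DESeq2, and the number that fell was 4 without TGFβ replicate 2. With 12 libraries in one edgeR fit, 2 rose and 0 fell (1 at an unadjusted p under 0.05). The proliferation marker *Mki67* was at 42.2, 43.7 and 42.8 in controls and 40.4, 34.1 and 36.9 with TGFβ and fell by 0.21 on the log2 scale, which was not DE without TGFβ replicate 2 (edgeR adjusted p = 0.053). *Top2a* was not DE (edgeR adjusted p = 0.105) unless TGFβ replicate 1 was left out (log2 fold change -0.16), and *Tyms*, which makes thymidylate, rose by 1.07. Among the 10 cyclin and inhibitor genes 7 fell and 2 rose (median -0.37), and 2 fell and 1 rose with 12 libraries in one fit. *Ccnd1* (cyclin D1) fell 2.38-fold from 1202, 1149 and 1194 to 487, 496 and 507, *Ccnd2* and *Ccnd3* by 0.53 and 0.60 on the log2 scale, and the 2 that rose were *Cdkn2b*, a known TGFβ-induced inhibitor, by 0.62, and *Myc*, from 22.3, 21.4 and 22.7 to 59.9, 58.6 and 59.4.

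Genes in which inherited variants cause thoracic aortic disease were DE in both directions, 9 higher and 7 lower of 20 (median 0.04). Those with higher values included matrix, cytoskeletal and ligand genes such as *Lox*, *Acta2* and *Tgfb2*, the receptor gene *Tgfbr1* and the glucose transporter gene *Slc2a10*. *Slc2a10* rose from 16.6, 17.9 and 18.1 to 34.7, 34.6 and 33.5. *Tgfbr2*, *Smad3*, *Col3a1* and *Myh11* fell as given above, and *Efemp2*, *Mfap5*, *Smad2* and *Tgfb3* were not DE.

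**Figure D4:**
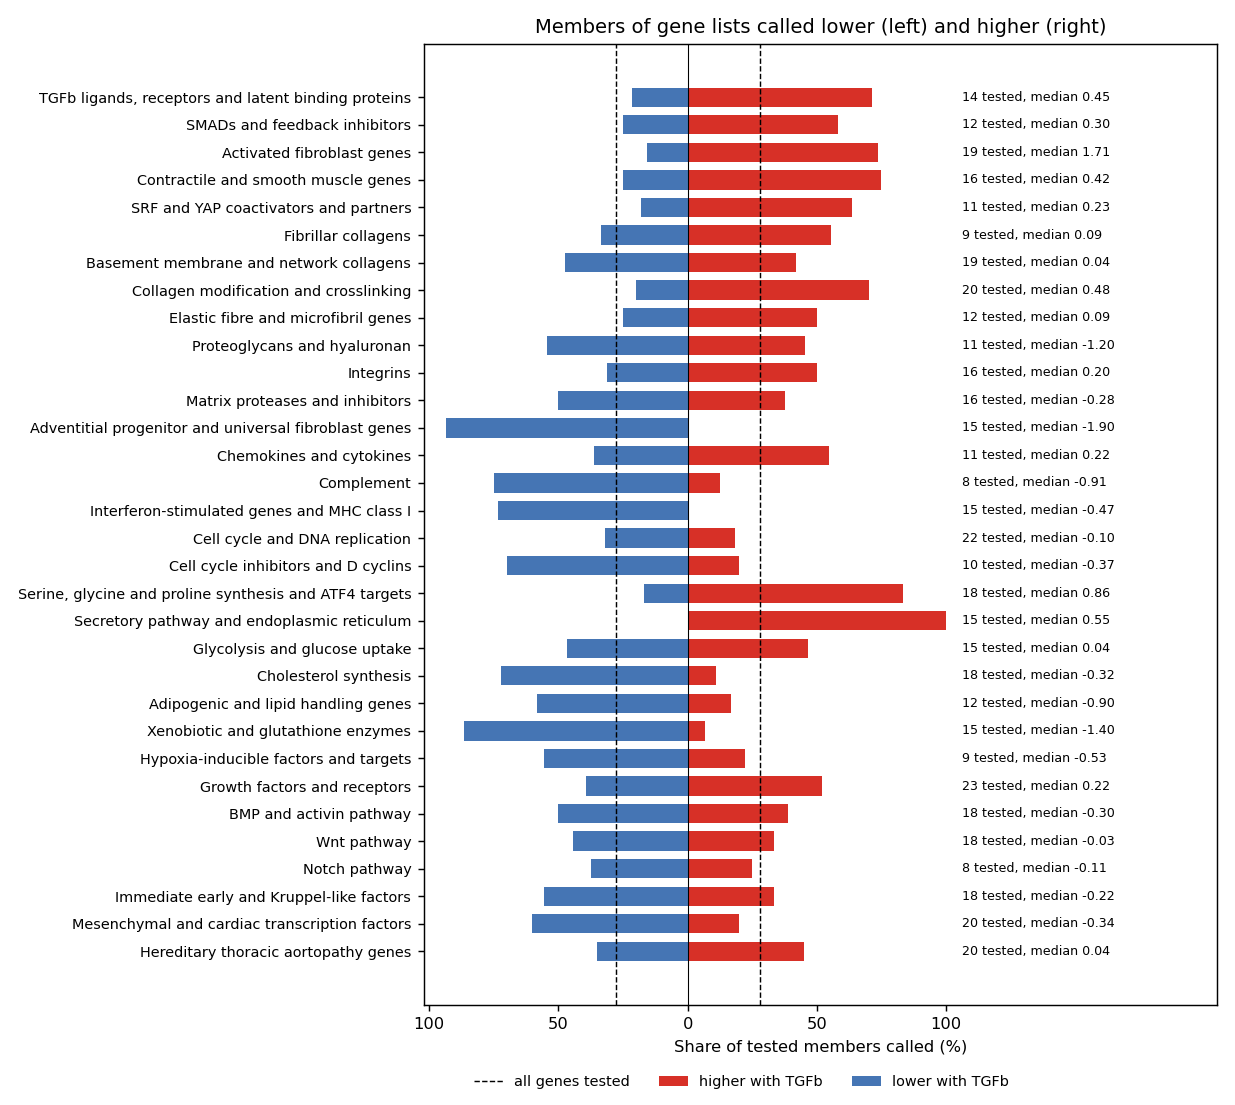
Share of the tested members of 32 gene lists that were DE and lower (left, blue) or higher (right, red) with TGFβ, in percent, with the number tested and the median log2 fold change at the right and dashed lines at the shares over all genes tested (27.6% and 28.2%). The secretory list is all on the right, the adventitial progenitor and interferon lists have no bar on the right, and several lists are split.

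Whether ascending fibroblasts changed differently from descending ones was tested as the interaction of site and treatment over the 12 libraries, with levels here on the scale of that fit. It was DE for 118 of 14637 genes (0.806%), 47 more positive and 71 more negative in ascending fibroblasts, and 99 of the 118 were also DE in ascending fibroblasts alone. Descending control replicate 3 stood apart from all others, with 11.02% of its counts on mitochondrial genes and 13031 genes detected, against 19337 to 20931. Without it the interaction was DE for 2022 of 15013 genes (13.5%), of which 1525 were also DE in ascending fibroblasts alone. The count was 25 to 47 with any 1 ascending or descending TGFβ library left out, and 131 and 82 without descending control replicates 1 and 2. Over all 12 libraries it was 422 with DESeq2, and 1 in edgeR with replicate number added to the model as a block.

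*Eln* had the smallest interaction p. It rose from 1549.7, 1595 and 1468 to 2874, 2465 and 2552 normalized CPM in ascending and from 135, 118 and 101 to 1722, 1642 and 1727 in descending fibroblasts, so that ascending controls already lay near the level of treated descending cells (interaction, ascending minus descending, -3.07 on the log2 scale, standard error 0.15, edgeR adjusted p = 1.42e-05). *Ptprb*, a receptor phosphatase known from endothelium, rose from 16.3, 16.6 and 17.5 to 69.6, 63.1 and 61.8 in ascending and from 16.7, 18.3 and 16.1 to 176, 192 and 183 in descending fibroblasts (-1.48, standard error 0.12). *Col8a1*, a network collagen, rose less in ascending fibroblasts as well, from 1306, 1288 and 1300.3 to 1698, 1678 and 1768 against 1115, 1173 and 1117 to 2658, 2771 and 2675 in descending ones (-0.85, edgeR adjusted p = 0.00409). *Dlc1*, a GTPase activating protein, went opposite ways, from 165, 164 and 161 to 107, 115 and 109.7 in ascending and from 117, 127 and 120.2 to 188, 198 and 199 in descending fibroblasts (-1.24, edgeR adjusted p = 7.42e-04). *Fhl1* fell from 486, 456 and 477 to 224, 208 and 215 in ascending fibroblasts and was at 164, 174 and 149.8 and 145, 145 and 149 in descending ones (-0.98).

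In the other direction, *Cxcl12*, the chemokine that binds CXCR4, rose from 914, 893 and 916 to 1080.0, 1064 and 1048 in ascending fibroblasts and fell from 1055, 1082 and 743 to 367, 399 and 347 in descending ones (1.60, standard error 0.18, edgeR adjusted p = 0.00411). *Megf10* rose from 16.8, 19.3 and 17.6 to 41.95, 41.6 and 44.1 in ascending fibroblasts and was at 91.1, 94.7 and 77.6 and 69.3, 83.9 and 84.9 in descending ones (1.39). *Daam2*, a formin of Wnt signalling, fell in both, from 57.1, 59.5 and 72.4 to 4.03, 3.85 and 3.31 in descending and from 3.57, 4.40 and 3.56 to 1.31, 1.09 and 1.36 in ascending fibroblasts, whose controls were far lower (2.46, edgeR adjusted p = 0.00162). *Dpep1*, a membrane dipeptidase, rose from 3.87, 4.65 and 3.75 to 9.87, 9.51 and 10.3 in ascending fibroblasts and was at 26.1, 22.7 and 17.2 in controls and 10.7, 13.5 and 11.3 with TGFβ in descending ones (2.17). *Tmeff1* rose in both, from 14.3, 12.9 and 12.96 to 52.1, 50.2 and 47.996 in ascending and from 30.6, 31.1 and 33.05 to 58.9, 58.4 and 59.2 in descending fibroblasts (1.003).

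Some genes prominent in ascending fibroblasts were also compared between the sites, chosen after their values were seen. *Postn* was at 420.4, 437 and 993 in descending controls, where replicate 3 was over 2 times the others, and its interaction of 2.28 (edgeR adjusted p = 0.0228) was 1.75 without it (edgeR adjusted p = 1.34e-16). The interaction of *Postn* was not DE with any 1 ascending library or any 1 descending TGFβ library left out (edgeR adjusted p from 0.068 to 0.088). *Meox1*, with no count in ascending controls, was at 1.52, 2.70 and 1.998 with TGFβ in ascending fibroblasts and at 0.234, 0.434 and 0 and 0.664, 0.542 and 0.331 in descending controls and TGFβ libraries, with an interaction adjusted p of 0.0978 in edgeR, and of 7.93e-05 without descending control replicate 3. *Acta2* had an interaction of -0.038 (standard error 0.089, edgeR adjusted p = 0.844), which was not DE, with or without that library.

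**Figure D5:**
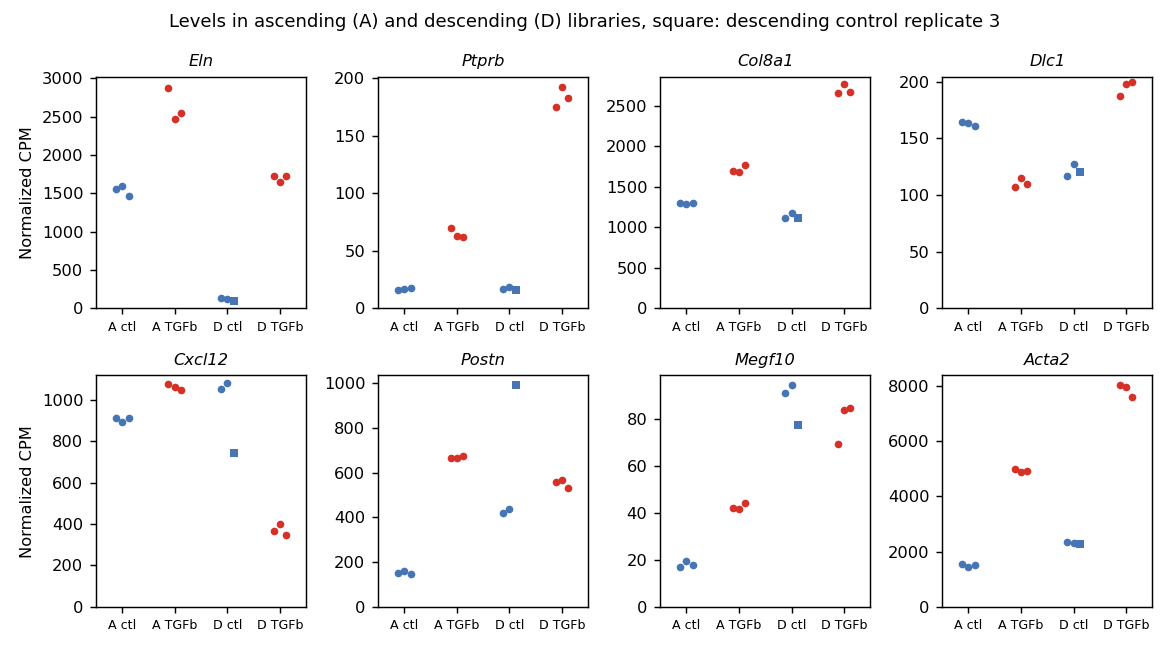
Normalized CPM of 8 genes in ascending (A) and descending (D) control (ctl) and TGFβ libraries, 1 point per library, with descending control replicate 3 as a square. *Eln* lies at 1468 to 1595 in ascending and at 101 to 135 in descending controls, *Cxcl12* and *Dlc1* move in opposite directions at the 2 sites, and *Acta2* rises at both.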

How the data were processed

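Reads were counted per gene by the authors, who deposited whole-number counts without normalization for 54352 gene symbols; the submitters' processing notes name FastQC, STAR, featureCounts, DESeq2 and mm10. The annotation and strand setting are not given in the sources used here, so antisense and overlapping genes may share reads. All 12 count columns matched a sample by name, and no other column was used. Counts of the 6 ascending libraries were filtered (filterByExpr, at least 10 counts), scaled (TMM) and tested with edgeR 4.0.16 (R 4.3.3; quasi-likelihood, two-sided, Benjamini-Hochberg adjusted p under 0.05), where the study's methods used DESeq2 (1.42.0), run here as an alternative. Standard errors were the log2 fold change over the root of F. A model of all 12 libraries gave the interaction. Named genes were, per direction, the 10 with the largest change, the 10 with the smallest adjusted p and the 10 with the largest difference in level (at least 5 normalized CPM), key members and up to 6 DE members of each list, and 5 interactions per direction; *Aspn*, *H2-K1*, *Id4*, *Ifi44* and *Nqo1* were named after their values were seen. The 32 gene lists, 9 marker lists and other members were chosen with earlier results of these data known. Positions are GENCODE vM21 (GRCm38, which mm10 denotes), matched for 53688 symbols. On simulated counts with 200 changed genes, edgeR recovered 100% for the ascending comparison (6.10% of its calls false, 13934 genes tested) and 97% for the interaction (7.18% false, 14425 genes tested). The simulation gave every library the same spread and changed far fewer genes than were DE here. No simulated library stood apart as descending control replicate 3 does, so these shares do not give the power of either test on these data. Same-numbered ascending control and TGFβ libraries did not deviate together (r = -0.017, -0.025 and 0.037), so replicate numbers were not taken as pairs, and no pair of libraries agreed within sampling noise. Some genes that the rule names are not reported here.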

Additional observations from a re-analysis of the deposited data

Results flagged for a closer look

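The response to TGFβ differed between the sites by the interaction test (edgeR, 12 libraries) for 118 genes, and the 10 named among them follow as the interaction on the log2 scale, ascending minus descending. It was negative for *Eln* (-3.07), *Ptprb* (-1.48), *Dlc1* (-1.24), *Fhl1* (-0.98) and *Col8a1* (-0.85). It was positive for *Daam2* (2.46), *Dpep1* (2.17), *Cxcl12* (1.60), *Megf10* (1.39) and *Tmeff1* (1.003). All 10 rest on 3 libraries a group, including descending control replicate 3. Only that of *Eln* was DE when a replicate block was added to the edgeR model (edgeR adjusted p of the others 0.102 to 0.169).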

How the results depend on the processing

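The count of DE genes in ascending fibroblasts stayed between 7146 and 7427 with 1 library left out, and 6179 genes kept call and direction in every such fit. It was 2338 (1181 higher, 1157 lower) with the spread estimated over 12 libraries in one fit, and 1598 (550 higher, 1048 lower) at an absolute log2 fold change above 1. DESeq2 gave 6733, other size factors 7766, at least 10 counts in every library 7281, no filter 8005 and the replicate block 7766. The 118 interactions (47 positive, 71 negative) became 422 with DESeq2 (191 positive, 231 negative), 168 with at least 10 counts in every library (73 positive), and 1 with a replicate block (0 positive, 1 negative, 1027 at an unadjusted p under 0.05 in edgeR), and the cause was not tested. Of the 10 interactions named in the text each was DE with any 1 library left out, but only that of *Eln* was DE under the replicate block (edgeR adjusted p of the others 0.102 to 0.169), where none moved by over 0.018 on the log2 scale. That of *Postn* was not DE under the block either (edgeR adjusted p = 0.194). With 1 library left out the count of interactions ranged from 25 to 2022 (10 to 911 positive, 15 to 1111 negative), the extremes being without ascending TGFβ replicate 3 and without descending control replicate 3. Under the replicate block the log2 fold change of *Igfbp5* was 0.49, and it ranged from -0.67 to 2.65 with 1 library left out, while that of *Fap* ranged from -0.46 to 0.42. Of the named genes, 211 of 212 kept direction and side of the threshold under the replicate block, all of 209 but *C3*, *Fbn1* and *Grem1* with DESeq2, 212 of 212 with other size factors and 180 of 212 with 12 libraries in one fit, where 32 were not DE. Over the 32 pathway lists, 413 members were called, 397 to 402 with 1 library left out and 217 with 12 libraries in one fit. In that fit the activated fibroblast list (13 rose, 2 fell), fibrillar collagens (4 and 3), complement (1 and 5) and progenitor genes (0 and 11) stayed within 1.5 times of their counts, and the serine (12 and 0), xenobiotic (0 and 10) and hypoxia lists (1 and 4) did so in their larger direction. Other lists lost more in at least 1 direction, as SMADs and feedback inhibitors had 4 rises and 1 fall, contractile genes 7 and 1, basement membrane genes 3 and 4, collagen modification 8 and 2, elastic fibre genes 2 and 3, proteoglycans 2 and 5, integrins 7 and 2, and proteases 3 and 6. There were 4 rises and 2 falls among chemokines, 0 and 5 among interferon-stimulated genes, 2 and 4 among adipogenic genes, 8 and 5 among growth factors and receptors, 5 and 5 in the BMP list, 3 and 4 in the Wnt list, 0 and 2 in the Notch list, 2 and 4 among immediate early factors and 4 and 3 among aortopathy genes. The counts of 0 in this edgeR fit were also 0 at an unadjusted p under 0.05, apart from 1 fall in the serine list, 1 fall in the cell cycle list and 1 rise in the Notch list. Of 39 list medians, 8 moved by more than the replicate spread with at least 10 counts in every library, 3 with no filter 2 each with DESeq2 and with 12 libraries in one fit, and 3 to 6 with 1 ascending library left out. Genes near the floor are limited by depth.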
